A study of Mus musculus with 6 samples.

Results

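The Cd209 lectin family was followed in myeloid cells of mouse visceral fat through 5 genes, Cd209a (ENSMUSG00000031494), Cd209b (ENSMUSG00000065987), Cd209d (ENSMUSG00000031495), Cd209f (ENSMUSG00000051906) and Cd209g (ENSMUSG00000079168). They were chosen by gene symbol and are 5 of the 33456 genes in the count matrices. A further 2 genes of the family in the matrices, Cd209c and Cd209e, are not members and are given only for comparison. Epididymal fat was digested with collagenase, cells were sorted for CD45, which marks leukocytes, together with CD11b, an integrin subunit found on the myeloid lineage, and single-cell RNA libraries were made. There were 3 samples of mice on a high-fat diet, called HFD, and 3 samples of mice on the control diet, called Control. The labels give no strain, age, sex or length of diet, and do not say whether a sample is 1 animal or a pool, so p-values cover only how far these samples spread, and that spread may be technical.

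Genes of this family encode type II membrane proteins of the C-type lectin superfamily, which bind mannose- and fucose-rich sugars on microbes and on host glycoproteins through a calcium-dependent domain. The human counterpart is DC-SIGN (CD209), a receptor of dendritic cells, and in mice the family is expanded by gene duplication. The product of Cd209a, often called mouse DC-SIGN, is known from dendritic cells derived from monocytes and from conventional dendritic cells of type 2 (cDC2). That of Cd209b, SIGN-R1, is known from marginal zone macrophages of the spleen, where it captures bacterial polysaccharides. Cd209d encodes SIGN-R3, which binds mannose and fucose, while the products of Cd209f and Cd209g are less well characterised.

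The genes lie on chromosome 8, and in the RefSeq order of the annotation Cd209a comes first, followed by Cd209e, Cd209d, Cd209b and Cd209c, with Cd209f and Cd209g as neighbours at the far end. Cd209f and Cd209g are near-identical copies in part. In the GENCODE M21 transcripts their longest coding transcripts were identical at 91.5% of 1164 aligned bases, with a shared run of 416 bases. Of the 31-base words of Cd209f, 42.5% also occurred in Cd209g, and 43.0% of those of Cd209g occurred in Cd209f, but none did in the last 500 bases of either transcript. Among the other pairs of the 7 family genes identity was 61.1% to 80.3%, no shared run was longer than 26 bases and no 31-base word was shared. The sources used here do not give which end of a transcript the libraries read, so the division of UMIs between Cd209f and Cd209g is uncertain, and values of their sum with Cd209b and Cd209d are given as well.

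The likeness of Cd209f and Cd209g extends upstream of the genes, which is why their promoter windows are shown with that of Cd209a, the member that stood apart in the cells. The windows are the 250 bases before the RefSeq start in GRCm38.p6, at chr8:4105765-4106014 on the minus strand for Cd209f, chr8:4134486-4134735 on the plus strand for Cd209g and chr8:3748985-3749234 on the minus strand for Cd209a, and each is written 5′ to 3′ along its gene. In the first pair the capitals mark the longest run that both windows share, 154 bases that begin at position -154 of Cd209f and -168 of Cd209g, counted back from the start. In Cd209a they mark the letters TGCTGA at position -132.
Cd209f: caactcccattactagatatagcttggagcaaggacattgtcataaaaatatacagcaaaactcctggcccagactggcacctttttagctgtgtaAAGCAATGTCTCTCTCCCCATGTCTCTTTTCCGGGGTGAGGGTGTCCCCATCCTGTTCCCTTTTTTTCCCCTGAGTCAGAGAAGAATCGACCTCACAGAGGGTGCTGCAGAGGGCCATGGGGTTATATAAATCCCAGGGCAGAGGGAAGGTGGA
Cd209g: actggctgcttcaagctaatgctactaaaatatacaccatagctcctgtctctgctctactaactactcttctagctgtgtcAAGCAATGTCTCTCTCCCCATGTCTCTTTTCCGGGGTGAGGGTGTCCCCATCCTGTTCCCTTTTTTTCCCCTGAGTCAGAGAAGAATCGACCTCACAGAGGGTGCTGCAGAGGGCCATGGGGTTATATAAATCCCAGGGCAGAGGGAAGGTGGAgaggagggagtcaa
Cd209a: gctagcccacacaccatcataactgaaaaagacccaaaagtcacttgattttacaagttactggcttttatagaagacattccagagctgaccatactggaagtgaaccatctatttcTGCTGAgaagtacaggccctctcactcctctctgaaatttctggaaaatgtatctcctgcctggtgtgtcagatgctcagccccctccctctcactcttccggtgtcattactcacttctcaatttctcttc

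Over windows that reach 50 bases past the start, Cd209f and Cd209g were identical at 91.8% of 281 aligned bases, against 55.0% to 75.8% in the other pairs of the family. Letters of 4 motifs were searched on both strands of these 300-base windows: GAGGAAGT for PU.1, TGCTGA as a half-site of MAF proteins, the palindromic STAT6 motif and the composite motif of ETS and IRF factors. Cd209a and Cd209d each held 1 match to TGCTGA, which 19.5% of 32851 promoters hold, and 1 match to the composite of ETS and IRF factors, which 2.72% hold. None of the 4 motifs matched in Cd209b, Cd209f or Cd209g. GAGGAAGT (in 3.2% of promoters) and the STAT6 motif (in 6.95%) matched in no member.

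The matrices held 5511 entries of 2195 distinct cell barcodes, and 1082 barcodes (49.3%) were listed in more than 1 sample, 370 of them in all 6. Between 62.4% and 83.2% of the barcodes of an HFD sample and between 79.9% and 90.2% of those of a Control sample were shared in this way. Each barcode was therefore counted only in the sample where it had most UMIs, and values with all entries as deposited are given beside the results that they move. The entries left out held 22.3% of all UMIs but 44.3% of the UMIs of the members in HFD samples, and 42.2% of all UMIs and 24.4% of the members' UMIs in Control samples. After filters on detected genes and mitochondrial UMIs 2114 cells remained, 1128 from HFD and 986 from Control samples. The 3 HFD samples held 3587086 to 5708323 UMIs and the 3 Control samples 1997647 to 3874349 UMIs, with medians of 9735 UMIs per HFD cell and 7234 per Control cell. Markers of cells outside the sort gate were present: 8 of 8 fibroblast markers rose on HFD, and their summed level was 3461 to 4593 counts per 1e6 UMIs of the sample (CPM) in HFD samples, against 316 to 1122 CPM in Control samples. Ptprc, which encodes CD45, was at 122 to 127 CPM in HFD samples and at 218 to 244 CPM in Control samples, and Itgam, which encodes CD11b, was at 84.2 to 86.4 CPM in HFD samples and at 147 to 217 CPM in Control samples.

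All 5 members were lower in HFD samples than in Control samples, and no HFD sample reached the lowest Control sample in any of them. Cd209a was at 57.3, 41.3 and 62.9 CPM in HFD samples, against 328, 269 and 251 CPM in Control samples. The Control values lay within a narrow range and the HFD values far below it. In edgeR's quasi-likelihood test on UMIs summed over all cells of a sample, its log2 fold change was -2.53 ± 0.18 (SE; adjusted p = 8.93e-05). Cd209b was at 12.4, 5.30 and 4.18 CPM in HFD samples, from 71, 19 and 19 UMIs, against 75.1, 87.6 and 81.5 CPM in Control samples, a log2 fold change of -3.54 ± 0.30 (adjusted p = 0.000147). HFD sample 1 stood above the other HFD samples for this gene but far below every Control sample.

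Cd209d was at 25.6, 33.7 and 22.2 CPM in HFD samples, against 302, 174 and 253 CPM in Control samples, a log2 fold change of -3.32 ± 0.22 (adjusted p = 8.93e-05). Cd209f was at 79.9, 118 and 48.6 CPM in HFD samples, against 851, 483 and 490 CPM in Control samples, a log2 fold change of -3.05 ± 0.34 (adjusted p = 0.000356). Control sample 1 was the highest for Cd209d, Cd209f and Cd209g alike. Cd209g was at 25.9, 29.3 and 24.6 CPM in HFD samples, against 326, 185 and 199 CPM in Control samples, a log2 fold change of -3.31 ± 0.23 (adjusted p = 8.93e-05). Thus 5 of 5 members were called lower, where 32.4% of all 10450 genes tested were called and 17.2% were called lower. In 17.7% of the genes every HFD sample was below every Control sample. With every entry counted as deposited the 5 log2 fold changes lay between -2.41 and -1.70, and all stayed below an adjusted p of 0.05. Of the family genes that are not members, Cd209c had 7 or 8 UMIs in each HFD sample, against 20 to 61 in Control samples, and Cd209e had 1 UMI in HFD samples together, against 25 in Control samples together.

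**Figure D1:**
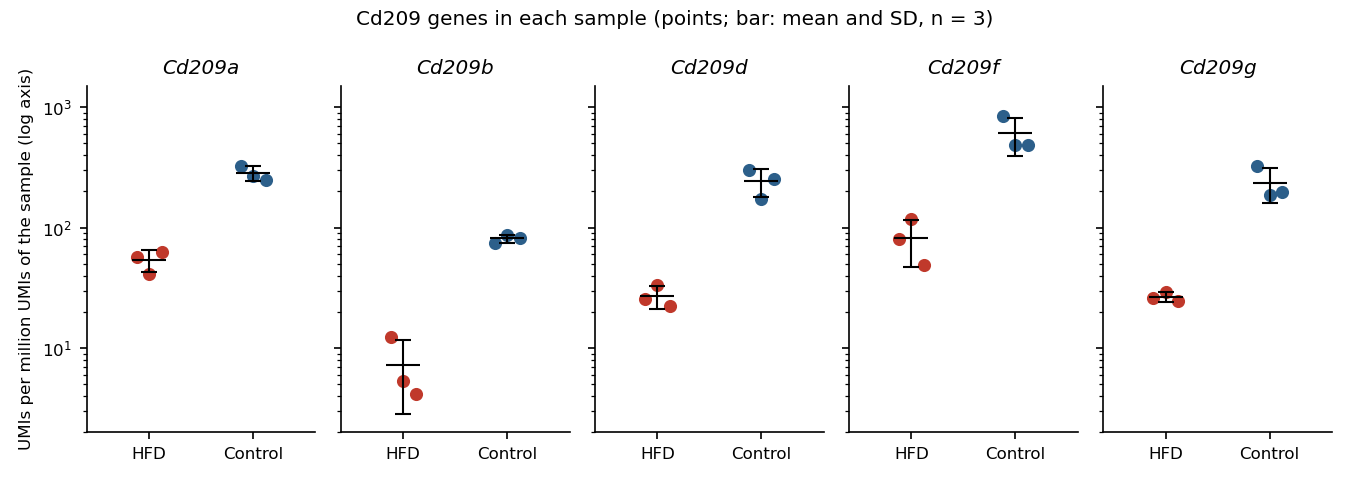
Level of each Cd209 gene in each of the 3 HFD and 3 Control samples, in CPM on a log axis, with the mean and SD as a bar. In all 5 panels the 3 HFD points lie below the 3 Control points. UMIs are not divided by gene length, so points are to be compared within a panel.

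In sums over a sample, fewer cells of a type and less RNA per cell cannot be told apart, so the cells were clustered without any Cd209 gene and the members were then read in the clusters. The cells fell into 16 clusters. The cluster of 333 cells led by Lyve1, Cd163 and Cbr2 raised 12 of 14 markers of perivascular resident macrophages and is called resident macrophage-like. The cluster of 152 cells led by Klrd1, H2-Oa and Napsa raised 8 of 12 markers of cDC2 and is called cDC2-like. A further cluster of 268 cells, led by Lyz1, Ear2 and Retnla, met no marker rule and stays unnamed. A cluster of 204 cells led by Hbb-bs and one led by Saa3, which had 9 and 7 of 9 macrophage markers above the median of the clusters, also stay unnamed, because markers of another type were more frequent among their 10 leading genes. The clusters were compared as a description, with no test.

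Cd209a had its highest level in cDC2-like cells, which held 50.4% of its UMIs. Its level there, summed over samples, was 1013 CPM, against 209 CPM in resident macrophage-like cells and 208 CPM in the unnamed cluster led by Lyz1, and 7.62 to 9.40 CPM in the lipid-associated macrophage-like clusters. Over the samples with at least 10 cells of a cluster the order was cDC2-like at 919 ± 369 CPM (SD, n = 6 samples), T cell-like at 256 ± 205 CPM (n = 3), the Lyz1-led cluster at 216 ± 55.0 CPM (n = 3), resident macrophage-like at 203 ± 67.4 CPM (n = 6) and plasma cell-like at 189 ± 258 CPM (n = 2). The 3 Lyz1-led samples were all Control samples, at 168, 205 and 276 CPM. In the same samples resident macrophage-like cells were at 167, 212 and 301 CPM. The order of these 2 clusters therefore rests on unlike sets of samples. The lowest cDC2-like value, 435 CPM in HFD sample 2, was above the highest resident macrophage-like value, 301 CPM in Control sample 3. It was below the highest T cell-like value, 472 CPM in HFD sample 3, which rests on 34 UMIs in 10 cells.

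The other members lay mostly in resident macrophage-like cells. Cd209f, summed over samples, was at 2250 CPM there, against 63.1 CPM in cDC2-like cells. Over samples it was at 1915 ± 687 CPM in resident macrophage-like cells (n = 6), 297 ± 109 CPM in the Lyz1-led cluster (n = 3), 256 ± 111 CPM in a macrophage-like cluster led by Slc40a1 and Gdf15 (n = 4) and 227 ± 3.73 CPM in a cluster led by Saa3 (n = 2). The lowest resident macrophage-like sample, at 838 CPM, was above the highest sample of any other cluster. The samples of the Lyz1-led cluster, at 210 to 419 CPM, and of the Slc40a1-led one, at 94.1 to 348 CPM, overlapped, and the 2 Saa3-led values of 224 and 230 CPM lay within both ranges. Cd209g was at 668 ± 220 CPM in resident macrophage-like cells, with 419 to 1040 CPM, and its next cluster was the Slc40a1-led macrophage-like one at 125 ± 105 CPM. Cd209d was at 646 ± 257 CPM, with 206 to 928 CPM, and the Lyz1-led cluster followed at 148 ± 5.42 CPM. Cd209b was at 215 ± 126 CPM, with 47.4 to 319 CPM, and the Lyz1-led cluster followed at 49.3 ± 34.4 CPM. For Cd209b and Cd209d the resident macrophage-like samples overlapped those of other clusters. HFD samples 2 and 3 were at 59.5 and 47.4 CPM of Cd209b, against up to 89.9 CPM in the Slc40a1-led cluster, and HFD sample 3 was at 206 CPM of Cd209d, against up to 257 CPM in T cell-like cells.

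**Figure D2:**
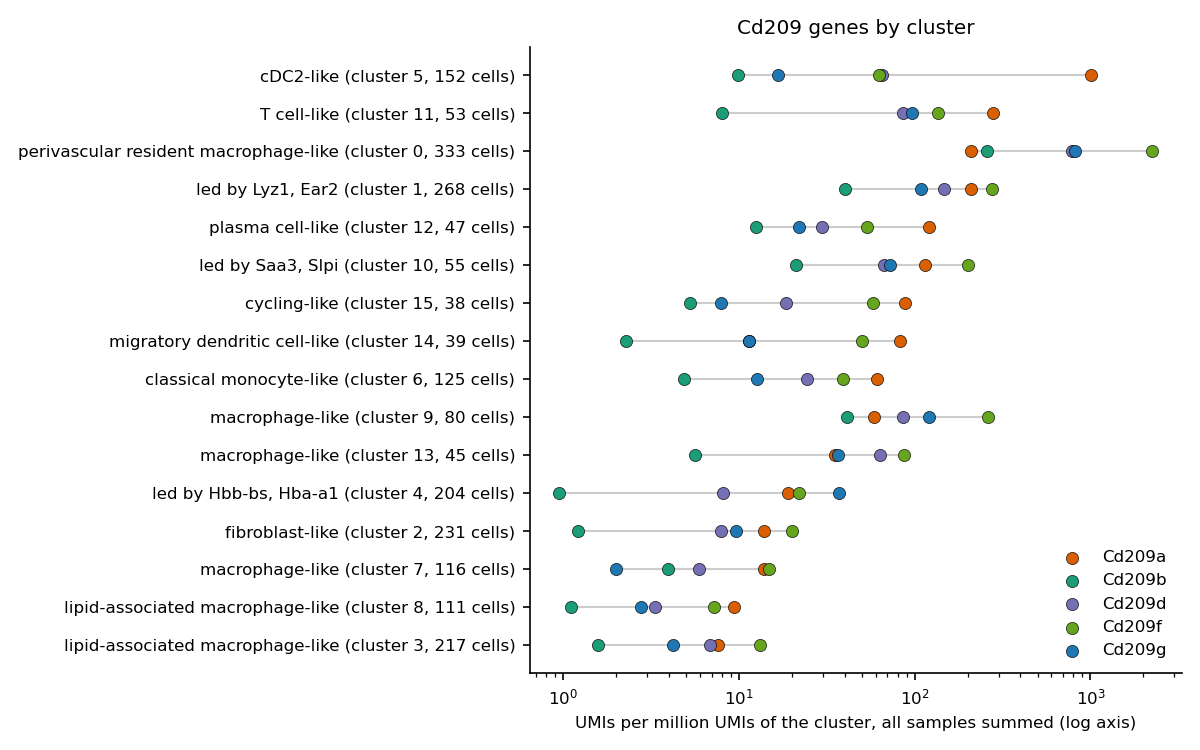
Level of each Cd209 gene in the 16 clusters, all samples summed, in CPM of the cluster on a log axis; each row is a cluster and each colour a gene. Cd209a has its highest level in the cDC2-like row at 1013 CPM, and the other genes have theirs in the resident macrophage-like row, where Cd209f reaches 2250 CPM. UMIs are not divided by gene length, so each colour is to be compared down the rows.

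In both diets the largest part of the UMIs of each gene lay in the cluster of its highest level. Of the 761 Cd209a UMIs in HFD cells 49.7% lay in cDC2-like cells and 9.99% in resident macrophage-like cells, against 50.7% and 15.95% of the 2489 Cd209a UMIs in Control cells. T cell-like cells held 10.6% of the Cd209a UMIs on HFD, more than resident macrophage-like cells did, and 0.924% on Control. On HFD these UMIs lay in only 6 of 22 T cell-like cells, with 47 in HFD sample 1, 0 in sample 2 and 34 in sample 3. Of the 1099 Cd209f UMIs in HFD cells 63.6% lay in resident macrophage-like cells and 17.5% in the Slc40a1-led macrophage-like cluster, against 78.4% and 1.59% of the 5589 in Control cells. Cd209b, Cd209d and Cd209g followed the same order, with 56.9%, 58.7% and 59.2% of their UMIs in resident macrophage-like cells on HFD, against 76.0%, 70.4% and 75.2% on Control. No more than 4.54% of the UMIs of Cd209b, Cd209d, Cd209f or Cd209g lay in cDC2-like cells in either diet. The Lyz1-led cluster, which held 3 HFD and 265 Control cells, carried 19.3% of Cd209a and 11.5% of Cd209f UMIs in Control cells.

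**Figure D3:**
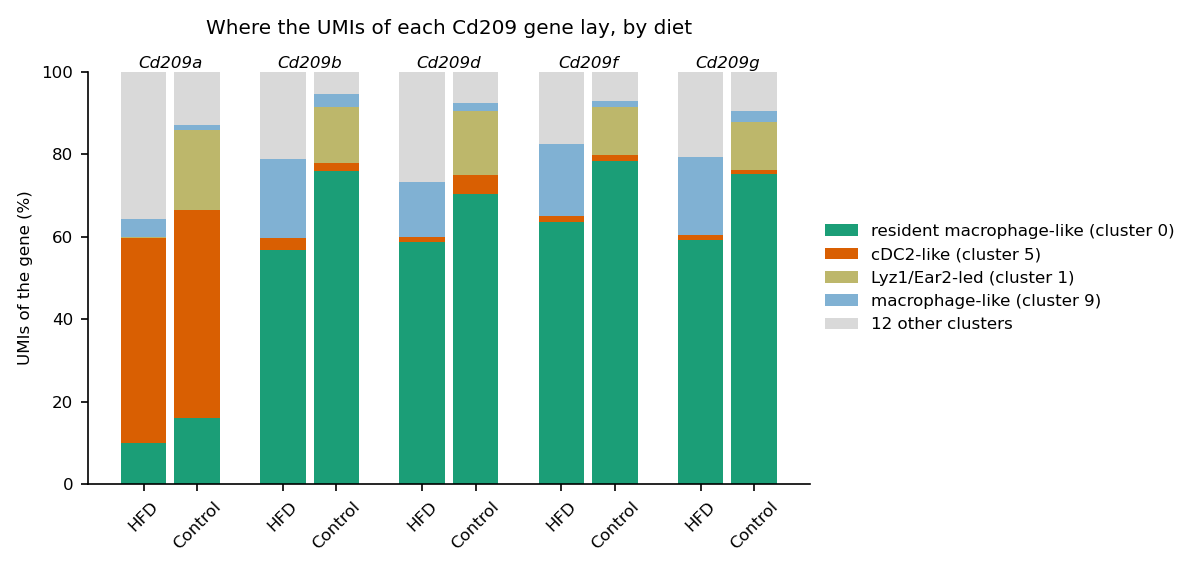
Share of the UMIs of each Cd209 gene that lay in each of 4 named or numbered clusters and in the 12 others, in percent, for HFD (left bar) and Control (right bar). The cDC2-like part makes up 49.7% of Cd209a on HFD and 50.7% on Control, and the resident macrophage-like part is the largest one in every bar of the other 4 genes.

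Within single cells, Cd209a and the other members were high mostly in cells of different clusters. With at least 10 UMIs as the mark of a high cell, 102 cells were high in Cd209a, 25 from HFD and 77 from Control samples, and 66.7% of them were cDC2-like while 4.90% were resident macrophage-like. A sum of at least 10 UMIs of Cd209b, Cd209d, Cd209f and Cd209g was found in 281 cells, 36 from HFD and 245 from Control samples, and 73.7% of them were resident macrophage-like while 1.07% were cDC2-like. Of the 102 cells high in Cd209a 10 were also high in the other members, beside 281 of all 2114 cells. By diet these were 3 of 25, beside 36 of all 1128 HFD cells, and 7 of 77, beside 245 of all 986 Control cells. The overlap alone therefore does not show that high levels exclude each other within a cell. The cells high in Cd209a had a median of 2 UMIs of the other members, and the cells high in the other members had a median of 1 UMI of Cd209a.

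The other members were found together. Of the 333 resident macrophage-like cells 25.8% had UMIs of all 4 of Cd209b, Cd209d, Cd209f and Cd209g, 39.9% had UMIs of 3 of them and 12.9% had none, while of the 1781 cells of the other clusters 2.41% had all 4 and 61.5% had none. Among resident macrophage-like cells with Cd209g, 97.5% of 237 also had Cd209f, against 41.7% of those without Cd209g. That pair is also the pair of near-identical copies. For Cd209d, which shares no 31-base word with either, 93.2% of 234 cells also had Cd209f, against 53.5% of the cells without Cd209d.

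Detection of at least 1 UMI did not separate the kinds of cells as the levels did. Cells with Cd209a made up 13.9 ± 1.85% of HFD cells and 50.7 ± 7.85% of Control cells (SD, n = 3 samples each). Cells with any of the other 4 made up 20.7 ± 2.84% of HFD cells and 74.8 ± 9.80% of Control cells, and cells with both 6.10 ± 1.15% of HFD and 42.0 ± 9.41% of Control cells. In all 3 shares every HFD sample lay below every Control sample, and the exact two-sided permutation test gave p = 0.1, the smallest that 20 arrangements of 3 against 3 samples allow. With each cell thinned to 2000 UMIs, which left out 37 Control cells and no HFD cell, the shares were 5.73% of HFD against 25.9% of Control cells for Cd209a, 7.64% against 47.6% for the other members and 1.49% against 14.2% for both. With every entry as deposited they were 15.96% of HFD against 28.3% of Control cells for Cd209a, 21.8% against 48.6% for the other members and 6.88% against 19.7% for both.

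Cells of types not known for these genes carried them too, more so in Control samples, and the part of background RNA in such shares was not tested. Among fibroblast-like cells Cd209a was found in 5.80% of 207 HFD cells (exact 95% binomial interval 3.03% to 9.91%) and 33.3% of 24 Control cells (15.6% to 55.3%), with medians of 6823 and 7089 UMIs per cell. Among plasma cell-like cells it was found in 12.5% of 24 HFD cells and 56.5% of 23 Control cells, with medians of 11054 and 10002 UMIs. The share among cDC2-like cells was 60.4% of 53 HFD cells (46.0% to 73.5%) and 89.9% of 99 Control cells (82.2% to 95.05%), with medians of 9586 and 10145 UMIs, above those shares in both diets. The share among resident macrophage-like cells was 37.2% of 43 HFD cells and 55.5% of 290 Control cells, with medians of 9213 and 5730 UMIs, and on Control it was no higher than in plasma cell-like cells. The intervals cover counting error only.

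Of the other 4 members together, fibroblast-like cells held 8.92 CPM on HFD and 262 CPM on Control, and plasma cell-like cells 16.7 CPM and 250 CPM. The levels in resident macrophage-like cells, 2841 CPM on HFD and 4400 CPM on Control, were far above these. In cDC2-like cells the level was 44.8 CPM on HFD and 224 CPM on Control. The Control samples of fibroblast-like cells differed widely, at 430 CPM in sample 1, 0 CPM in sample 2 and 58.5 CPM in sample 3, from 47, 0 and 4 UMIs in 11, 3 and 10 cells, while those of cDC2-like cells were at 265, 183 and 161 CPM. Cd209d alone was at 108, 99.6 and 83.0 CPM in cDC2-like cells of the Control samples, against 73.1, 0 and 0 CPM in fibroblast-like and 76.2, 139 and 257 CPM in T cell-like cells. The cDC2-like values thus lay above the fibroblast-like ones and below 2 of the 3 T cell-like ones, and the part of free RNA in them was not tested.

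Within a sample, a cell with Cd209a nevertheless had another member more often than a cell without Cd209a. The log2 odds ratio of their co-detection was 1.77, 2.37 and 1.70 in HFD samples and 0.84, 1.06 and 1.52 in Control samples. It was above 0 in 6 of 6 samples, with a mean of 1.54 (exact two-sided sign-flip permutation test, p = 0.03125, the smallest that 64 arrangements allow). The HFD values lay above the Control values by 0.81 on average (exact permutation test, p = 0.1, the smallest possible). Thinned to 2000 UMIs per cell the mean was 1.39 and the exact permutation p was 0.0625, and the part of free RNA in the co-detection was not tested. The thinned values were 3.27, 1.24 and 2.23 in HFD samples and -0.12, 0.67 and 1.03 in Control samples, so that in Control sample 1 the cells with Cd209a no longer had another member more often (55.6%, against 57.6% of its other cells). Without the 22 cells marked as doublets the mean was 1.53.

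The balance of Cd209a against the other 4 members, as the log2 ratio of their UMIs in a sample, was -1.33, -2.17 and -0.66 in HFD samples and -2.24, -1.79 and -2.03 in Control samples. The HFD samples spread widely and overlapped the Control samples, and the difference of 0.63 was not past the exact permutation test (p = 0.3). As deposited the difference was also 0.63, but the groups did not overlap (exact permutation p = 0.1, the smallest possible). Without HFD sample 3 the difference was 0.27 (exact permutation p = 0.6), and without HFD sample 2 it was 1.02 with no overlap (exact permutation p = 0.2). A ratio of sums is set by how many cells of each kind a sample holds as well as by levels within cells.

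The resident macrophage-like, cDC2-like and Lyz1-led clusters, which carried the members, made up smaller shares of the kept cells on HFD. These are shares and not cell numbers, so a rise of 1 cell type lowers the others. Resident macrophage-like cells made up 3.31%, 4.07% and 4.21% of HFD cells and 33.5%, 23.5% and 29.3% of Control cells, a difference of 7.44 times between the means. cDC2-like cells made up 3.97%, 5.42% and 5.00% of HFD cells and 13.4%, 9.62% and 6.51% of Control cells, a difference of 2.05 times. Cells of the Lyz1-led cluster made up 0.288 ± 0.267% of HFD cells and 26.8 ± 1.05% of Control cells (SD, n = 3 each). Fibroblast-like cells made up 18.4 ± 1.20% of HFD and 2.32 ± 1.01% of Control cells. Each of these shares had no overlap between diets and an exact permutation p of 0.1, the smallest possible. With every entry as deposited the shares did not overlap either, but lay closer. Resident macrophage-like cells then made up 5.00 ± 0.726% of HFD and 17.0 ± 1.86% of Control cells, a difference of 3.40 times, and cDC2-like cells 5.38 ± 1.17% of HFD and 8.12 ± 0.422% of Control cells, a difference of 1.51 times. The 2 clusters with Lyz1 and Ear2 among their 3 leading genes made up 5.75 ± 1.08% of HFD and 14.3 ± 2.52% of Control cells as deposited, and fibroblast-like cells 9.88 ± 1.27% of HFD and 3.29 ± 0.865% of Control cells. Of the 2 unnamed clusters with macrophage markers, the Hbb-bs-led one made up 16.3 ± 0.978% of HFD and 2.10 ± 0.981% of Control cells, and the Saa3-led one 1.47 ± 0.517% of HFD and 3.91 ± 3.21% of Control cells. The Slc40a1-led macrophage-like cluster, which carried 17.5% of Cd209f UMIs on HFD, went the other way. It held 28, 13 and 21 of 453, 295 and 380 HFD cells, against 2, 2 and 14 of 388, 260 and 338 Control cells.

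Among all macrophage-like cells together, the 5 members were far lower on HFD too. The log2 fold changes in edgeR's quasi-likelihood test were -2.90 ± 0.14 for Cd209a, -4.16 ± 0.37 for Cd209b, -3.75 ± 0.33 for Cd209d, -3.66 ± 0.47 for Cd209f and -3.87 ± 0.34 for Cd209g, with adjusted p between 5.19e-06 and 0.000961. Thus 5 of 5 were called lower, where 20.3% of 8165 genes tested were called, 8.59% higher and 11.7% lower. No HFD sample reached a Control sample in any of them, which held for 16.8% of all genes. As deposited the values were smaller and all 5 calls held, at -1.52 for Cd209a, -2.62 for Cd209b, -2.61 for Cd209d, -2.65 for Cd209f and -2.84 for Cd209g (adjusted p between 2.40e-05 and 0.000427). With the Hbb-bs-led and Saa3-led clusters added they lay between -4.04 and -2.79, and all 5 were called. This class pools resident macrophage-like cells with lipid-associated and other macrophage-like clusters, whose shares differ between the diets.

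Within the resident macrophage-like cluster, the difference between diets was small beside that. All 5 log2 fold changes were below 0, between -1.11 and -0.41, and 1 of 5 members was called, where 3.22% of 2857 genes tested were called, 1.02% higher and 2.21% lower. Cd209g was that member, at 510, 609 and 419 CPM in HFD samples, against 1040, 656 and 776 CPM in Control samples (log2 fold change -0.78 ± 0.20, adjusted p = 0.0431). The HFD samples did not reach the Control samples, as in 8.86% of all genes tested, but without HFD sample 1, 2 or 3, or Control sample 1 or 3, the call was lost (adjusted p between 0.0583 and 0.173), while it held without Control sample 2 (-0.93, adjusted p = 0.0350). With no filter on low counts 4 of 5 members were called, Cd209b at -1.22 (adjusted p = 4.56e-05), Cd209d at -0.85 (adjusted p = 0.000519), Cd209f at -0.61 (adjusted p = 0.0139) and Cd209g at -0.89 (adjusted p = 0.000212), in a fit where the median of all genes was -0.26. As deposited the 5 values lay between -0.71 and -0.20, and Cd209g was called (adjusted p = 0.0105). Cd209f was at 1756, 2334 and 838 CPM in HFD samples, against 2904, 1765 and 1893 CPM in Control samples (-0.51 ± 0.28, adjusted p = 0.409), and the groups overlapped. Cd209a was at 176, 253 and 111 CPM in HFD samples, against 167, 212 and 301 CPM in Control samples (-0.41 ± 0.29, adjusted p = 0.551).

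Cd209d in these cells was at 617, 684 and 206 CPM in HFD samples, against 928, 575 and 868 CPM in Control samples (-0.74 ± 0.30, adjusted p = 0.223). Cd209b was at 302, 59.5 and 47.4 CPM in HFD samples, against 263, 319 and 298 CPM in Control samples (-1.11 ± 0.41, adjusted p = 0.186). HFD sample 1 was as high as the Control samples and the other HFD samples were far lower, and without HFD sample 1 the log2 fold change was -2.53 (adjusted p = 0.000968). With the replicate block it was -1.29 (adjusted p = 0.0335), and as deposited -0.40 (adjusted p = 0.477). The HFD sums rest on 15, 12 and 16 cells, and the Control sums on 130, 61 and 99. In the same cells Cd163, a scavenger receptor for haemoglobin, fell (-1.61 ± 0.33, adjusted p = 0.0177) and Trem2, a lipid receptor of lipid-associated macrophages, rose (1.66 ± 0.19, adjusted p = 0.000399). Of 8 lipid-associated macrophage markers tested 4 rose and 0 fell. Of 13 resident macrophage markers 2 rose, Vsig4 and Ccl8, and 1 fell, Cd163. The median of these 13 was 0.15, against 0.01 over all genes. Both fibroblast markers tested, Mgp and Dcn, rose as well, with a median of 3.08, and the part of these shifts in the members' values was not tested.

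Within cDC2-like cells Cd209a fell. It was at 679, 435 and 672 CPM in HFD samples, against 1334, 1171 and 1224 CPM in Control samples, and every HFD value was below every Control value (log2 fold change -1.14 ± 0.17, adjusted p = 0.00224). Here 6.18% of 2445 genes tested were called, 3.6% higher and 2.58% lower, and in 9.57% every HFD value was below every Control value. Cd209d was at 0, 10.7 and 14.4 CPM in HFD samples, against 108, 99.6 and 83.0 CPM in Control samples (-3.63 ± 0.49, adjusted p = 0.00107), and Cd209f at 51.9, 16.1 and 0 CPM, against 109, 59.7 and 62.2 CPM (-1.86 ± 0.58, adjusted p = 0.0816). Without HFD sample 1 Cd209f was called (-3.45, adjusted p = 0.0411), as it was with no filter on low counts (-1.97, adjusted p = 0.000152). T cell-like Control cells, a type not known for these genes, held 153 CPM of Cd209d and 226 CPM of Cd209f. Cd209b and Cd209g did not pass the filter on low counts. Of the 3 members tested 2 were called, Cd209a and Cd209d. The Cd209d values rest on 0, 2 and 3 UMIs in HFD samples, against 59, 25 and 16 in Control samples. Those of Cd209f rest on 12, 3 and 0 UMIs, against 60, 15 and 12. With so few UMIs on HFD, Cd209d passed the filter through its Control samples, where it was high. A fall was then the likely outcome for Cd209d, so its call adds little. The HFD sums rest on 18, 16 and 19 cells.

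As deposited, the log2 fold change of Cd209a in cDC2-like cells was -0.48 (adjusted p = 0.0361), that of Cd209d -0.96 (adjusted p = 0.0719) and that of Cd209f -3.10 (adjusted p = 0.0149), so that Cd209d lost the call and Cd209f gained it. Macrophage markers were also higher in the HFD sums of this cluster. C1qb, a complement gene of macrophages, was at 1927 ± 260 CPM in HFD samples and 463 ± 75.6 CPM in Control samples (1.97 ± 0.16, adjusted p = 8.48e-05). Of 7 macrophage markers tested 6 rose, and of 9 lipid-associated macrophage markers 6 rose and 0 fell. Clec10a, a galactose-binding lectin of cDC2, fell as Cd209a did (-0.88 ± 0.19, adjusted p = 0.0185), while Klrd1 (-0.58 ± 0.21, adjusted p = 0.142) and Flt3 (-0.40 ± 0.43, adjusted p = 0.694) did not pass the test, and of 6 cDC2 markers tested 1 fell. The source of the macrophage marker RNA, and its part in the Cd209a difference, were not tested.

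**Figure D4:**
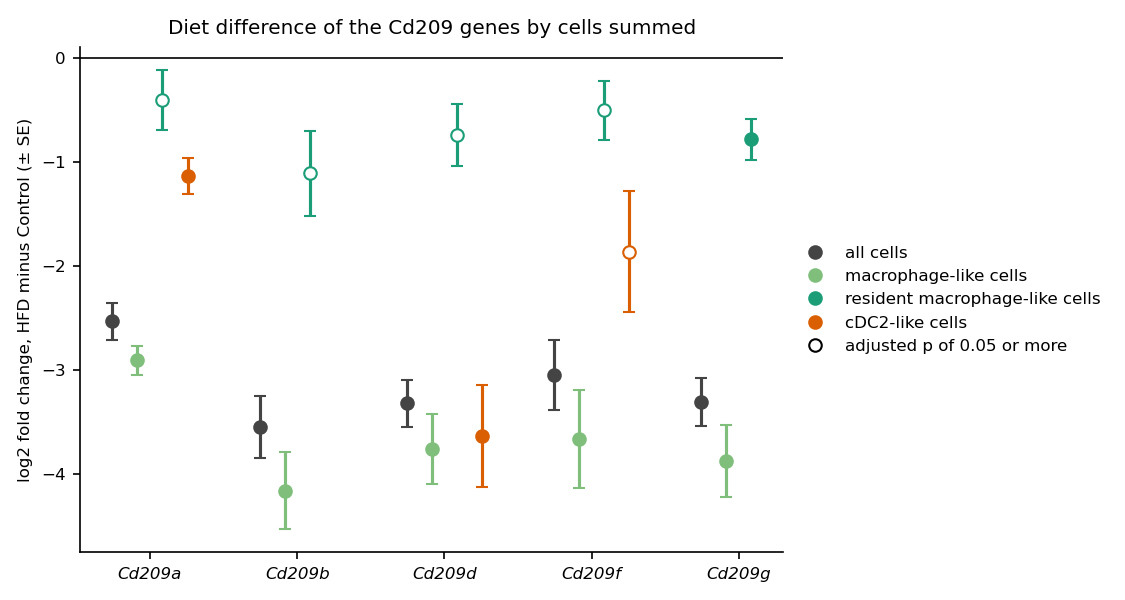
Log2 fold change of each Cd209 gene, HFD minus Control, with its SE, in sums over all cells, over macrophage-like cells, over resident macrophage-like cells and over cDC2-like cells; open points did not pass an adjusted p of 0.05. The 5 values over all cells lie between -3.54 and -2.53 and those within resident macrophage-like cells between -1.11 and -0.41. Cd209b and Cd209g have no point in cDC2-like cells because they did not pass the filter on low counts.

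Cells with Cd209a and none of the other 4 members (174 cells, 90 from HFD and 84 from Control samples) were set against cells with any of these and no Cd209a (483 cells, 162 from HFD and 321 from Control samples), within each of the 6 samples and over all genes other than the Cd209 family. Both groups held cells of every cluster. Of the first group 27.6% were cDC2-like, and of the second 25.9% were resident macrophage-like. The 493 cells with both were left out, among them 73 cDC2-like and 165 resident macrophage-like cells. In edgeR's quasi-likelihood test with the sample as a block 148 of 7149 genes differed (2.07%), 82 higher (1.15%) and 66 lower (0.923%) in the Cd209a cells. Among genes with a mean of at least 50 CPM the highest were Klrd1 (CD94, a lectin-like receptor), at 133 ± 69.3 CPM in Cd209a cells and 14.1 ± 13.8 CPM in cells of the other members (SD, n = 6 samples; log2 fold change 3.31 ± 0.26, adjusted p = 1.30e-05), Napsa, an aspartic protease (2.09 ± 0.25, adjusted p = 0.000625), and Itgb7, an integrin chain (2.09 ± 0.24, adjusted p = 0.000502). Ltb4r1, a leukotriene B4 receptor, Ccnd2, a cyclin, and Plbd1, a phospholipase, followed at 1.65, 1.65 and 1.52. Klrd1 and Napsa were higher in the Cd209a cells of 6 of 6 samples.

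Lower in the Cd209a cells were Cd163, at 27.2 ± 23.2 CPM against 90.6 ± 66.9 CPM in cells of the other members (-1.69 ± 0.24, adjusted p = 0.00229), Ednrb, an endothelin receptor (-1.81 ± 0.32, adjusted p = 0.00904), and Mmp12, a macrophage elastase (-1.46 ± 0.32, adjusted p = 0.0236). Mmp12 lost the call without HFD sample 1 or 3 or Control sample 1 or 2 (adjusted p = 0.0575 to 0.0971). The largest negative values among genes of that level, -3.11 for Igkv14-126, an immunoglobulin light chain segment, -2.56 for Cxcl13, a chemokine for B cells, and -1.96 for Saa3, an acute phase protein, were carried by few samples. Igkv14-126 was at 1043 CPM in cells of the other members of Control sample 2 and at or under 54.9 CPM in those of the other samples, and without that sample its value was -0.49 (adjusted p = 0.820). Saa3 was at 4620 CPM in those of Control sample 1, and without that sample its value was -1.44 (adjusted p = 0.155). Without Control sample 2 the value of Saa3 was -1.88 (adjusted p = 0.0852). Cxcl13 was -1.76 without Control sample 1 (adjusted p = 0.248), -2.30 without HFD sample 3 (adjusted p = 0.126) and -2.58 without Control sample 3 (adjusted p = 0.0535).

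Of 14 resident macrophage markers tested 10 were lower in the Cd209a cells and 0 higher, with a median log2 fold change of -0.90, against -0.01 over all genes. Ccl8, a chemokine (-1.32 ± 0.18, adjusted p = 0.00134), Fcna, a ficolin (-1.44 ± 0.20, adjusted p = 0.00162), Cd163 and Pf4, platelet factor 4 (-0.88 ± 0.16, adjusted p = 0.0105), had the smallest p. Of 11 cDC2 markers 3 were higher and 0 lower, with a median of 1.34: Klrd1, Flt3, the receptor for a growth factor of dendritic cells (2.70 ± 0.53, adjusted p = 0.0154), and Tnfsf9, a costimulatory ligand (1.34 ± 0.27, adjusted p = 0.0174). Of 9 macrophage markers 5 were lower, C1qa, Csf1r, C1qb, C1qc and Mrc1, with a median of -0.67. No fibroblast marker of 8 was called, and their median was 0.76. Without Control sample 1 the calls of Ltb4r1, Flt3, Tnfsf9, C1qa, C1qb, Csf1r and Mrc1 were lost, at adjusted p of 0.0606 to 0.145. Those of Klrd1, Napsa, Itgb7, Cd163, Ccl8 and Fcna held without any 1 sample.

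**Figure D5:**
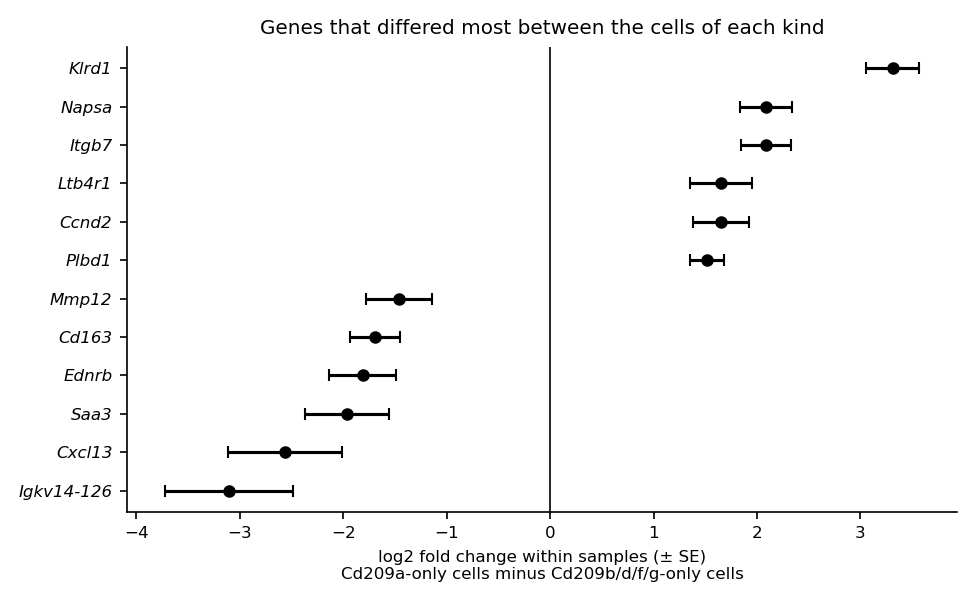
The 6 largest log2 fold changes in each direction among genes with a mean of at least 50 CPM, with SE, between cells with Cd209a and none of the other members and cells with any of these and no Cd209a, within 6 samples. Klrd1 lies at 3.31 and Cd163 at -1.69; Igkv14-126, Cxcl13 and Saa3 rest on few samples.

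Other lists of genes tied to the family were read in the same comparison. Of 19 C-type lectin receptors tested, Klrb1b, a receptor of the Nkrp1 family, was higher (2.87 ± 0.41, adjusted p = 0.00197) and Mrc1, the mannose receptor CD206, lower (-0.70 ± 0.17, adjusted p = 0.0433) in the Cd209a cells. Mgl2, a galactose-binding lectin, was at 1.13 ± 0.29 (adjusted p = 0.0663). Of 9 partners and signalling proteins of lectins of the DC-SIGN type, Lsp1, which binds the tail of DC-SIGN in human cells, was higher (1.51 ± 0.20, adjusted p = 0.00131). Of 13 regulators of dendritic cell and macrophage identity 1 was lower, Maf, a transcription factor of macrophages (-0.77 ± 0.17, adjusted p = 0.0293), and Zbtb46, a factor of conventional dendritic cells, was at 2.18 ± 0.58 (adjusted p = 0.0798). Of 14 genes of the interleukin 4 and growth factor list, Flt3 and Il2rg were higher and Csf1r and Arg1 lower. Maf, Il2rg and Arg1 lost the call without Control sample 1, at adjusted p of 0.0864, 0.0552 and 0.0622, and Arg1 was at 360 CPM in cells of the other members of Control sample 2 and at or under 10.9 CPM in those of the other samples.

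The same lists differed by diet in sums over all cells. Of 23 C-type lectin receptors 5 rose and 11 fell on HFD, where 15.2% of all genes rose and 17.2% fell. Mgl2 (-3.02 ± 0.23, adjusted p = 0.000106), Mrc1 (-1.33 ± 0.10, adjusted p = 8.93e-05) and Clec10a (-1.34 ± 0.14, adjusted p = 0.000287) fell with the members, and Clec12a, an inhibitory receptor, rose (0.91 ± 0.10, adjusted p = 0.000348). Of the 12 partners and signalling proteins 8 fell and 0 rose, among them Lsp1 (-1.48 ± 0.14) and Syk, a tyrosine kinase (-0.68 ± 0.09). Of 14 regulators 6 fell and 2 rose: Irf4 (-2.42 ± 0.18) and Batf3 (-1.46 ± 0.12), factors of dendritic cells, and Maf (-0.77 ± 0.11) fell, and Nr1h3, the oxysterol receptor LXR alpha, rose (1.44 ± 0.14). Of 14 genes of the interleukin 4 and growth factor list 8 fell and 0 rose, among them Ccl24, a chemokine for eosinophils (-2.99 ± 0.18), and Retnla, a secreted protein induced by interleukin 4 (-3.65 ± 0.40). These sums mix cell types whose shares differ between the diets, and the part of that mixture was not tested.

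Across the 16 clusters, with all samples summed, the genes whose log2(CPM + 1) followed that of Cd209a most closely were Elmsan1 (Pearson's r = 0.88), Klrd1 (0.88), Rnase6 (0.85), Trappc5 (0.85), Gm9320 (0.84), Mgl2 (0.84), Batf (0.84) and Ltb4r1 (0.82), among 4833 genes with a mean of at least 20 CPM. Those that followed the sum of Cd209b, Cd209d, Cd209f and Cd209g most closely were Lyve1 (0.93), Cbr2 (0.92), Clk1 (0.92), Ednrb (0.91), Ppp1r10 (0.90), Cd163 (0.89), Fcna (0.88) and F13a1 (0.87). Within the family r was 0.84 to 0.97 among Cd209b, Cd209d, Cd209f and Cd209g and 0.57 to 0.74 between Cd209a and each of them. The clusters share libraries, so these values describe the clusters and carry no test, and the part of background RNA in them was not tested.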

How the data were processed

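Single-cell RNA libraries of 6 samples, 3 HFD and 3 Control, were analysed. The deposited matrices hold raw UMI counts per gene and cell barcode, which the authors made per sample. The submitters' processing notes name mm9 as genome build, Seurat 2.4 and Cell Ranger, without their roles. How cells were called was not stated. Members and gene lists were chosen with earlier results of these data known.

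Each barcode was counted only in the sample where it had most UMIs, and a cell was kept if it had 200 or more genes and no more than 10% of its UMIs from mitochondrial genes. Cells were clustered in scanpy 1.11.5 with leidenalg 0.10.2 on 2000 variable genes without the Cd209 family, 30 principal components, 20 neighbours and resolution 1.0. A cluster was named where at least 3 markers of a type were raised and 1 was among its 3 leading genes, or as macrophage-like where at least 6 macrophage markers were above the median of the clusters and its 10 leading genes held at least as many markers of a macrophage list as of any other list. This rule was chosen after the data were seen. The 22 cells marked as doublets were kept, apart from 1 alternative.

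UMIs were summed per sample and tested with edgeR 4.0.16 (quasi-likelihood, TMM, filterByExpr, Benjamini-Hochberg over all genes tested, threshold 0.05) in R 4.3.3 with limma 3.58.1. DESeq2 1.42.0 was an alternative. The edgeR step was tested on simulated data. Sums held at least 20 cells for whole samples and macrophage-like cells and at least 10 for the others. The 20-cell minimum planned for cDC2-like cells was not met in HFD samples, and the resident macrophage-like sums were added after seeing the data. Values per sample were compared by exact permutation tests in scipy 1.17.1. CPM are UMIs per 1e6 UMIs of the same cells. Depth limits the precision of low values, and intervals cover counting error only.

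The text names all 5 members, up to 4 genes with the smallest p per list, the 6 largest folds each way in the comparison of cells among genes with a mean of at least 50 CPM, and the 8 closest genes by likeness. Genes named outside this rule were chosen after their values were seen. Promoters are from RefSeq (GRCm38.p6) and matched all 5 members. Transcripts are from GENCODE M21 and were aligned with Biopython 1.88. Alternatives were every entry as deposited, other size factors, DESeq2, no filter on low counts, no cell filter, a replicate block, resolution 0.5, thinning to 2000 UMIs, at least 2 UMIs, no marked doublets, leaving out each sample and, added after seeing the data, macrophage-like sums with the unnamed clusters of at least 6 macrophage markers.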

Additional observations from a re-analysis of the deposited data

How the results depend on the processing

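All 5 members kept their direction and their call in sums over all cells and over macrophage-like cells under every alternative run there, the replicate block included. Deviations from the mean of the diet, over genes, had r of -0.157, -0.0686 and -0.122 between same-numbered HFD and Control samples. With 3 samples per diet such deviations are tied to each other, so these values cannot decide whether the numbers pair samples. With the replicate block the counts of genes called were 2470 over all cells (3389 without it), 998 in macrophage-like cells (1657), 146 in cDC2-like cells (151) and 143 in resident macrophage-like cells (92), where Cd209b then passed (-1.29, adjusted p = 0.0335). As deposited 50 genes were called in cDC2-like cells, 140 in resident macrophage-like cells and 760 between Cd209a cells and cells of the other members (148). With no filter on low counts the 3 counts were 299, 240 and 375, and with at least 2 UMIs per cell the last was 266. The cause of these shifts was not tested. Leaving out 1 sample gave 2233 to 3333 genes over all cells, 697 to 1867 in macrophage-like cells, 59 to 126 in cDC2-like cells, 28 to 63 in resident macrophage-like cells and 73 to 188 between the kinds of cells, with fewer samples in each fit. The co-detection log2 odds ratio was 1.39 with cells thinned to 2000 UMIs (exact permutation p = 0.0625) and 1.38 to 1.69 without 1 sample, where 0.0625 is the smallest p possible. No result reversed. Sums within clusters rest on as few as 12 resident macrophage-like and 16 cDC2-like HFD cells, and barcodes listed in several samples limit every comparison of the diets.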
